A study of Mus musculus with 4 samples.

Results

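The 10 genes described here are the core of the MHC class I presentation pathway: H2-K1, H2-D1, H2-T23, B2m, Tap1, Tap2, Tapbp, Psmb8, Psmb9 and Nlrc5. They were taken by gene symbol from a table of 32286 features, and all 10 were found. The list was chosen with earlier results of these data known. Their RNA was counted in single cells from the skeletal muscle of a mouse model of Duchenne muscular dystrophy, a disease caused by loss of the muscle protein dystrophin. The study, by its title, followed which muscle cells LNP-CRISPR reaches, that is, lipid nanoparticles that carry a CRISPR gene-cutting system, whose enzyme Cas9 was counted as RNA. There were 4 libraries, 1 per group: LNP-CRISPR bulk, vehicle bulk, LNP-CRISPR kit and vehicle kit. The kit libraries were made with a satellite cell isolation kit, which is meant to enrich the stem cells of muscle. All groups share the dystrophy model. Its strain and allele, the age of the mice, the muscle, the dose, the time of sampling and the number of mice are not given in the sources used here.

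Nearly every nucleated cell displays peptides from its own proteins on MHC class I molecules. The proteasome cuts proteins into peptides, and under interferon its standard catalytic subunits are exchanged for inducible ones such as Psmb8 and Psmb9. Tap1 and Tap2 form the pump that brings peptides into the endoplasmic reticulum, and tapasin (Tapbp) holds the pump to an empty class I molecule. The loaded complex of a heavy chain (H2-K1, H2-D1 or the non-classical H2-T23) with the light chain beta-2-microglobulin (B2m) then travels to the surface, where CD8 T cells read it. Nlrc5 is the transactivator of these genes. Healthy mature muscle fibres are known for displaying few class I molecules.

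Levels are given as UMIs (unique molecular identifiers, each standing for 1 counted RNA molecule) summed over the cells of a class, per 1000000 nuclear-encoded UMIs (CPM). Ratios are LNP-CRISPR over vehicle unless stated otherwise, and brackets hold 95% intervals, which cover counting error only. Each group has 1 library, so the treatments are compared without a test. A difference between libraries cannot be told apart from a difference between animals or preparations. The libraries held 1317 (LNP-CRISPR bulk), 1305 (vehicle bulk), 2207 (LNP-CRISPR kit) and 1683 (vehicle kit) barcodes with 25921795 to 40666916 UMIs each, and 5651 cells were kept in all, with medians of 8627 to 22270 UMIs per cell by library. Any pair of libraries shared 0 to 3 barcodes. The kept cells held 139941 UMIs of the 10 genes. Cells were clustered without 49 class I pathway genes, the 10 among them, and a class name ending in "-like" rests on marker genes alone.

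Of the 10 genes, 8 lie in or near the MHC region of chromosome 17 (GRCm38): Tapbp (33915899 to 33929292), H2-K1 (33996017 to 34000347, minus strand), Psmb9 (34181987 to 34187764, minus strand), Tap1 (34187553 to 34197225), Psmb8 (34197721 to 34201454), Tap2 (34203527 to 34216321), H2-D1 (35262730 to 35267499) and H2-T23 (36029773 to 36032855, minus strand). B2m lies on chromosome 2 (122147686 to 122153083) and Nlrc5 on chromosome 8 (94434356 to 94527272). All 10 are protein-coding. Promoter windows, from 250 bases before to 50 bases after the start, were found in the RefSeq table (GRCm38.p6) for 8 of the 10, all but Tap2 and Nlrc5. The windows of Tap1 and Psmb9 lie on opposite strands and share 275 bases. The windows of both classical heavy chains, the light chain and Tap1 are shown, 5′ to 3′, with motif matches in capitals. They are H2-K1 (chr17:34000298-34000597, minus strand), H2-D1 (chr17:35262844-35263143, plus strand), B2m (chr2:122147437-122147736, plus strand) and Tap1 (chr17:34187306-34187605, plus strand).
H2-K1: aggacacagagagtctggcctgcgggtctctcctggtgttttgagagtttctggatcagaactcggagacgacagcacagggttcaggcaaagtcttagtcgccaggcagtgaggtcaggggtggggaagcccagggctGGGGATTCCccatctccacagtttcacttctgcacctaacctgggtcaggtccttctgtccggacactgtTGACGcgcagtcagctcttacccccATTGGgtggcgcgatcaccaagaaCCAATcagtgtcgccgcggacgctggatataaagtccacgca
H2-D1: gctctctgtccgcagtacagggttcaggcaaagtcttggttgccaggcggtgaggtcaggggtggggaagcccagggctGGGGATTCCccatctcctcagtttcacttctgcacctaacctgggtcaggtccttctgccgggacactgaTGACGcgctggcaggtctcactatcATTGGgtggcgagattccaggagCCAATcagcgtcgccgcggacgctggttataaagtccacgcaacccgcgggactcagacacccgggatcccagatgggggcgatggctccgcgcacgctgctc
B2m: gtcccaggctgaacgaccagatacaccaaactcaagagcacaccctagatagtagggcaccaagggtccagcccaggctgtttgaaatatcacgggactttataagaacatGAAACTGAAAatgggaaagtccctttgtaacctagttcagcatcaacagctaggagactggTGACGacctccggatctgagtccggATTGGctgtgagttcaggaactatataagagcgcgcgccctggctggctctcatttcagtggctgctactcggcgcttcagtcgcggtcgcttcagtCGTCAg
Tap1: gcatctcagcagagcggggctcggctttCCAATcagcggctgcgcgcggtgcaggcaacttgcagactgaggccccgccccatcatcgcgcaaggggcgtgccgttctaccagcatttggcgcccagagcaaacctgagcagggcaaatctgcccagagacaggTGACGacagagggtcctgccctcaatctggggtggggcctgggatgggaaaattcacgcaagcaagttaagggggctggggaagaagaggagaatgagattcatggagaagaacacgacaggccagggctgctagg

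There were 5 motifs, searched on both strands, and a match on the other strand appears as its reverse complement. CCAAT, the box bound by NF-Y, was found in 7 of the 8 member windows, against 37.4% of all 32851 windows of this length. TGACG, the core of the CREB-type X2 box, was found in 5 of 8 (H2-K1, H2-D1, B2m, Tap1 and Psmb9), against 20.8%. The overlapping Tap1 and Psmb9 windows share their CCAAT match and their TGACG match. These are the same bases read from opposite strands, so the same site is counted for both genes. GGGGATTCC, a kappa B motif, was found in 2 of 8 (H2-K1 and H2-D1), against 0.2496%. In both of these windows it came before TGACG, which came before the first CCAAT: at bases 140, 210 and 235 of the H2-K1 window and 80, 150 and 175 of the H2-D1 window. An interferon regulatory factor motif (GAAA, 2 bases of any kind, GAAA) was found in 2 of 8 (B2m and H2-T23), against 3.44%, and a STAT-type motif (TTC, 3 bases of any kind, GAA) in 1 of 8 (Psmb8), against 8.30%. These matches describe letters, and no binding was measured.

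The classical heavy chains H2-K1 and H2-D1 present peptides to CD8 T cells, and both were highest in T or NK-like cells. There H2-K1 stood at 2158 (LNP-CRISPR) and 2226 (vehicle) CPM. Dendritic-like cells held 955 (LNP-CRISPR) and 686 (vehicle) CPM, macrophage or monocyte-like cells 778 (LNP-CRISPR) and 763 (vehicle) CPM and neutrophil-like cells 526 (LNP-CRISPR) and 494 (vehicle) CPM. Immune classes thus led, and stromal classes followed. FAP-like cells, named after the fibro-adipogenic progenitors that make the matrix of muscle, held 295 (LNP-CRISPR) and 273 (vehicle) CPM of H2-K1, tenocyte-like cells, resembling cells of tendon, 102 (LNP-CRISPR) and 110.0 (vehicle) CPM, and bulk satellite-like cells 88.0 (LNP-CRISPR) and 51.2 (vehicle) CPM. T or NK-like cells held 7.30 (6.80–7.83, LNP-CRISPR) and 8.15 (7.43–8.92, vehicle) times the FAP-like level, and FAP-like cells 3.36 (2.82–4.03, LNP-CRISPR) and 5.34 (4.42–6.50, vehicle) times the satellite-like level. Not all neighbours in the order of H2-K1 levels were apart. In LNP-CRISPR bulk the intervals overlapped between neutrophil-like cells and cluster 8, an unnamed group of shallow barcodes, and among the pericyte or smooth muscle-like, glial-like, tenocyte-like and satellite-like cells. In vehicle bulk each class overlapped the next one from macrophage or monocyte-like through dendritic-like and neutrophil-like cells and cluster 8 to FAP-like cells, and tenocyte-like cells overlapped pericyte or smooth muscle-like cells.

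In the kit libraries H2-K1 was lower than in bulk FAP-like cells in all classes named here. It stood at 94.7 (LNP-CRISPR) and 81.5 (vehicle) CPM in pericyte or smooth muscle-like cells, the mural cells of vessels, at 60.5 (LNP-CRISPR) and 54.5 (vehicle) CPM in satellite-like cells and at 45.7 (LNP-CRISPR) and 35.9 (vehicle) CPM in glial-like cells, which support nerve. Fibre-like barcodes had few H2-K1 counts (3 UMIs in LNP-CRISPR and 3 in vehicle), or 3.29 (LNP-CRISPR) and 2.34 (vehicle) CPM. They were shallow, with medians of 1623 (LNP-CRISPR) and 1664 (vehicle) UMIs per cell, against 26659 (LNP-CRISPR) and 18996 (vehicle) in satellite-like cells.

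H2-D1 followed H2-K1 across the 31 class-by-library points with at least 20 cells (Pearson r = 0.97 on log2(CPM + 1), a description of points that share libraries and depth). Its order of classes was not the same: neutrophil-like cells came second, at 1909 (LNP-CRISPR) and 1849.7 (vehicle) CPM, above dendritic-like cells at 1703 (LNP-CRISPR) and 1486 (vehicle) CPM and macrophage or monocyte-like cells at 1244 (LNP-CRISPR) and 1293 (vehicle) CPM. UMIs of H2-D1 per UMI of H2-K1 show the same. They were 3.63 (3.13–4.21, LNP-CRISPR) and 3.74 (2.61–5.48, vehicle) in neutrophil-like cells, 2.69 (2.33–3.13, LNP-CRISPR) and 2.75 (2.36–3.21, vehicle) in bulk tenocyte-like cells, 1.45 (1.40–1.51, LNP-CRISPR) and 1.47 (1.42–1.52, vehicle) in FAP-like cells and 1.06 (0.968–1.16, LNP-CRISPR) and 1.03 (0.906–1.16, vehicle) in T or NK-like cells. In each of these classes the intervals of both treatments overlapped. In kit satellite-like cells the balance was 1.85 (1.74–1.97, LNP-CRISPR) and 2.30 (2.14–2.48, vehicle) and in dendritic-like cells 1.78 (1.65–1.92, LNP-CRISPR) and 2.17 (1.99–2.36, vehicle), with intervals that did not overlap. Some UMIs may belong to other genes: 9.60% of the 50-base windows in the last 500 bases of H2-K1 transcripts, and 8.92% of those of H2-D1, also occur in transcripts of other genes.

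H2-T23 encodes Qa-1, a non-classical heavy chain seen by a receptor of NK cells. It stood at 263 (LNP-CRISPR) and 216 (vehicle) CPM in dendritic-like, 229.7 (LNP-CRISPR) and 230.0 (vehicle) CPM in T or NK-like, 139.9 (LNP-CRISPR) and 150.0 (vehicle) CPM in macrophage or monocyte-like and 129 (LNP-CRISPR) and 139 (vehicle) CPM in neutrophil-like cells. FAP-like cells held 50.04 (LNP-CRISPR) and 54.2 (vehicle) CPM and kit satellite-like cells 3.60 (LNP-CRISPR) and 4.503 (vehicle) CPM (93 UMIs in LNP-CRISPR and 88 in vehicle). Fibre-like barcodes had 0 UMIs in both kit libraries, which allows up to 3.29 CPM in LNP-CRISPR and 2.34 CPM in vehicle (3 counts, counting error only). Its 3′ end is the least unique of the 10, with 38.1% of windows found in transcripts of other genes.

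The light chain B2m was at 2973 (LNP-CRISPR) and 2573 (vehicle) CPM in T or NK-like cells, 2474 (LNP-CRISPR) and 2242 (vehicle) CPM in macrophage or monocyte-like cells, 2018 (LNP-CRISPR) and 1415 (vehicle) CPM in dendritic-like cells and 1147 (LNP-CRISPR) and 1140.2 (vehicle) CPM in neutrophil-like cells. FAP-like cells held 686 (LNP-CRISPR) and 600.3 (vehicle) CPM and bulk tenocyte-like cells 421 (LNP-CRISPR) and 387 (vehicle) CPM. In the kit, glial-like cells led with 452 (LNP-CRISPR) and 468 (vehicle) CPM. Pericyte or smooth muscle-like cells held 152 (LNP-CRISPR) and 159.6 (vehicle) CPM, satellite-like cells 125 (LNP-CRISPR) and 134 (vehicle) CPM and fibre-like barcodes 32.9 (LNP-CRISPR) and 17.2 (vehicle) CPM.

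In kit glial-like cells the light chain and the heavy chains parted. Their B2m was 3.60 (3.38–3.84, LNP-CRISPR) and 3.49 (3.20–3.80, vehicle) times the satellite-like level in the kit libraries, while their H2-D1 was 0.766 (0.673–0.869, LNP-CRISPR) and 0.704 (0.585–0.841, vehicle) times and their H2-K1 0.756 (0.632–0.898, LNP-CRISPR) and 0.658 (0.489–0.870, vehicle) times that level. Per UMI of H2-K1 plus H2-D1, kit glial-like cells held 3.44 (3.08–3.85, LNP-CRISPR) and 3.77 (3.19–4.46, vehicle) UMIs of B2m. In LNP-CRISPR bulk, with 22 glial-like cells, the balance was 2.09 (1.44–3.08), from 90 UMIs of B2m. The heavy chains of those bulk cells were not below the satellite-like level: H2-K1 was at 109.6 CPM in glial-like and 88.0 CPM in satellite-like cells, and H2-D1 at 168 CPM in glial-like and 139.8 CPM in satellite-like cells, with intervals that overlapped. In other classes the balance was 0.727 (0.695–0.761, LNP-CRISPR) and 0.745 (0.708–0.784, vehicle) in kit satellite-like cells, 0.513 (0.471–0.559, LNP-CRISPR) and 0.614 (0.538–0.701, vehicle) in kit pericyte or smooth muscle-like cells, 0.947 (0.921–0.973, LNP-CRISPR) and 0.890 (0.869–0.910, vehicle) in FAP-like cells and 0.471 (0.423–0.524, LNP-CRISPR) and 0.486 (0.374–0.629, vehicle) in neutrophil-like cells. Outside the glial-like cells the highest value over all classes and libraries was 1.47, in vehicle fibre-like barcodes. Macrophage or monocyte markers in kit glial-like cells came to 2.25 (LNP-CRISPR) and 2.76 (vehicle) CPM (2 of 12 genes seen in LNP-CRISPR and 2 in vehicle), with Adgre1, Csf1r, C1qa and C1qb at 0 in both libraries.

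**Figure D1:**
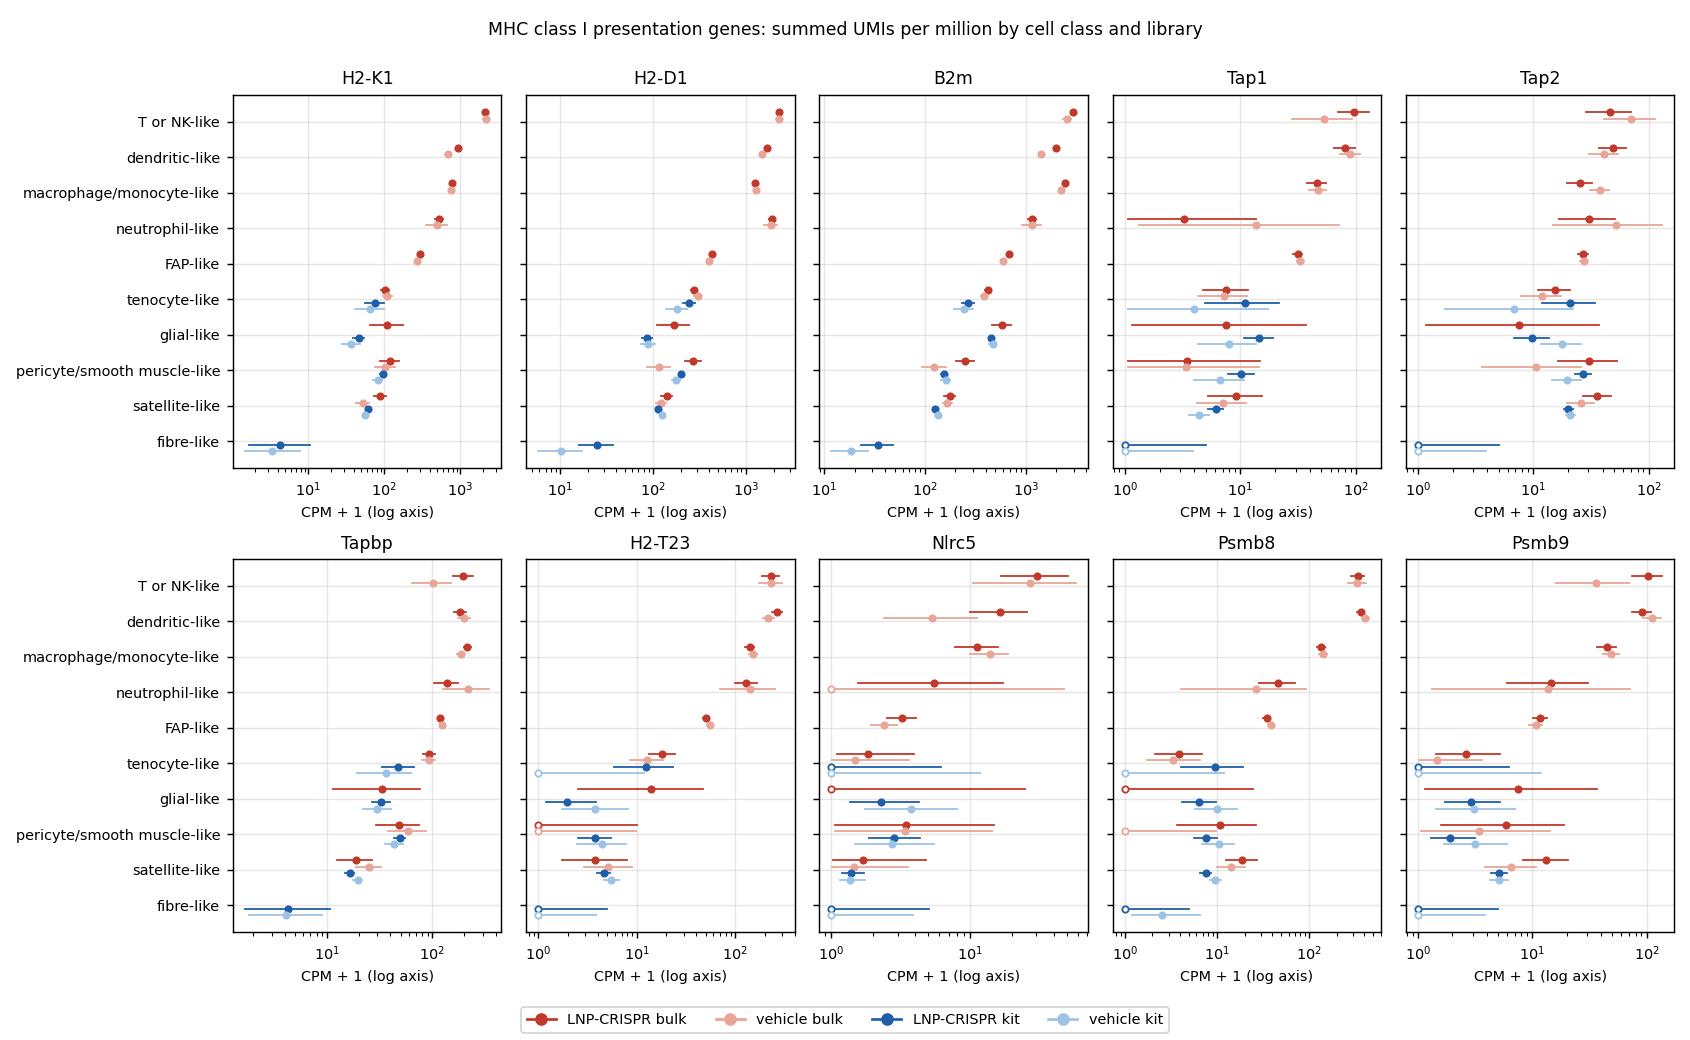
Level of each of the 10 genes (CPM + 1, log axis) by cell class, for LNP-CRISPR bulk, vehicle bulk, LNP-CRISPR kit and vehicle kit. Points are sums over the cells of 1 library, lines are 95% Poisson counting intervals, and open points are counts of 0. For H2-K1, T or NK-like cells stand furthest to the right, at 2158 (LNP-CRISPR) and 2226 (vehicle) CPM, and kit fibre-like barcodes furthest to the left, at 3.29 (LNP-CRISPR) and 2.34 (vehicle) CPM. B2m of kit glial-like cells, at 452 (LNP-CRISPR) and 468 (vehicle) CPM, stands above that of kit satellite-like cells, at 125 (LNP-CRISPR) and 134 (vehicle) CPM.

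Shares of cells with a UMI depend on depth as well as on level. B2m was seen in 96.1% (LNP-CRISPR) and 98.3% (vehicle) of FAP-like cells, and in 46.8% (LNP-CRISPR) and 43.1% (vehicle) after each cell was thinned to 1000 UMIs. The thinned share was 94% (LNP-CRISPR) and 90.9% (vehicle) in T or NK-like cells, 36.9% (LNP-CRISPR) and 38.8% (vehicle) in kit glial-like cells and 11.1% (LNP-CRISPR) and 12.4% (vehicle) in kit satellite-like cells. In fibre-like barcodes it was 3.43% (LNP-CRISPR) and 0.5% (vehicle), and 9.47% (LNP-CRISPR) and 7.58% (vehicle) before thinning.

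The peptide pump was rarer. Tap1 stood at 94.6 (LNP-CRISPR) and 52.1 (vehicle) CPM in T or NK-like cells (42 UMIs in LNP-CRISPR and 12 in vehicle), 78.6 (LNP-CRISPR) and 87.5 (vehicle) CPM in dendritic-like cells, 44.5 (LNP-CRISPR) and 45.8 (vehicle) CPM in macrophage or monocyte-like cells and 30.3 (LNP-CRISPR) and 31.8 (vehicle) CPM in FAP-like cells. Neutrophil-like cells, second for H2-D1, had 1 UMI in LNP-CRISPR and 1 in vehicle, or 2.26 (LNP-CRISPR) and 12.7 (vehicle) CPM. The vehicle value rests on 33 cells with a median of 1637 UMIs. Tap2 was spread more evenly, with 25.8 (LNP-CRISPR) and 26.4 (vehicle) CPM in FAP-like, 24.3 (LNP-CRISPR) and 36.5 (vehicle) CPM in macrophage or monocyte-like and 19.1 (LNP-CRISPR) and 19.96 (vehicle) CPM in kit satellite-like cells. UMIs of Tap1 per UMI of Tap2 were 0.267 (0.218–0.324, LNP-CRISPR) and 0.169 (0.128–0.220, vehicle) in kit satellite-like cells, 0.352 (0.2498–0.489, LNP-CRISPR) and 0.302 (0.149–0.573, vehicle) in kit pericyte or smooth muscle-like cells and 1.18 (1.02–1.35, LNP-CRISPR) and 1.20 (1.08–1.35, vehicle) in FAP-like cells. These balances count 3′ ends and are compared across classes.

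Tapasin was at 214 (LNP-CRISPR) and 185 (vehicle) CPM in macrophage or monocyte-like cells, 118 (LNP-CRISPR) and 121 (vehicle) CPM in FAP-like cells, 91.3 (LNP-CRISPR) and 91.6 (vehicle) CPM in bulk tenocyte-like cells and 15.4 (LNP-CRISPR) and 18.6 (vehicle) CPM in kit satellite-like cells. FAP-like and tenocyte-like cells lay close together for tapasin and far apart for Tap1, which stood at 30.3 (LNP-CRISPR) and 31.8 (vehicle) CPM in FAP-like and 6.55 (LNP-CRISPR) and 6.14 (vehicle) CPM in bulk tenocyte-like cells.

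The inducible proteasome subunits separated the classes widely. Psmb8 was at 362 (LNP-CRISPR) and 408 (vehicle) CPM in dendritic-like, 338 (LNP-CRISPR) and 334 (vehicle) CPM in T or NK-like, 135 (LNP-CRISPR) and 141 (vehicle) CPM in macrophage or monocyte-like, 33.8 (LNP-CRISPR) and 37.8 (vehicle) CPM in FAP-like and 2.86 (LNP-CRISPR) and 2.36 (vehicle) CPM in bulk tenocyte-like cells. Psmb9 was at 101 (LNP-CRISPR) and 34.7 (vehicle) CPM in T or NK-like cells (45 UMIs in LNP-CRISPR and 8 in vehicle). It was at 89.4 (LNP-CRISPR) and 111 (vehicle) CPM in dendritic-like, 10.6 (LNP-CRISPR) and 9.69 (vehicle) CPM in FAP-like and 4.10 (LNP-CRISPR) and 4.14 (vehicle) CPM in kit satellite-like cells.

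Each inducible subunit was then set against the standard subunit it replaces. UMIs of Psmb8 per UMI of Psmb5 were 3.04 (2.49–3.73, LNP-CRISPR) and 2.52 (2.12–2.9999, vehicle) in dendritic-like cells, 2.94 (2.13–4.12, LNP-CRISPR) and 4.81 (2.78–8.84, vehicle) in T or NK-like cells, 1.09 (0.937–1.27, LNP-CRISPR) and 1.14 (0.987–1.32, vehicle) in macrophage or monocyte-like cells, 0.274 (0.248–0.302, LNP-CRISPR) and 0.314 (0.290–0.340, vehicle) in FAP-like cells and 0.0235 (0.0201–0.0274, LNP-CRISPR) and 0.0326 (0.0278–0.0380, vehicle) in kit satellite-like cells. By count of 3′ ends, Psmb8 thus exceeded Psmb5 in dendritic-like and T or NK-like cells and was far below it in satellite-like cells. Psmb9 per Psmb6 was 0.471 (0.367–0.601, LNP-CRISPR) and 0.489 (0.392–0.606, vehicle) in dendritic-like cells, 0.0801 (0.0678–0.0942, LNP-CRISPR) and 0.0719 (0.0623–0.0825, vehicle) in FAP-like cells and 0.0121 (0.00992–0.0147, LNP-CRISPR) and 0.0124 (0.00983–0.0154, vehicle) in kit satellite-like cells. In dendritic-like cells Psmb9 was therefore below Psmb6. Psmb10, the third inducible subunit, was closer to parity there: per UMI of Psmb7 it was 0.975 (0.748–1.27, LNP-CRISPR) and 0.787 (0.613–1.01, vehicle) in dendritic-like cells, 0.328 (0.296–0.363, LNP-CRISPR) and 0.381 (0.350–0.413, vehicle) in FAP-like cells and 0.210 (0.198–0.223, LNP-CRISPR) and 0.223 (0.208–0.238, vehicle) in kit satellite-like cells. The Psmb8 balance of kit satellite-like cells was lower in LNP-CRISPR than in vehicle, with intervals that did not overlap.

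**Figure D2:**
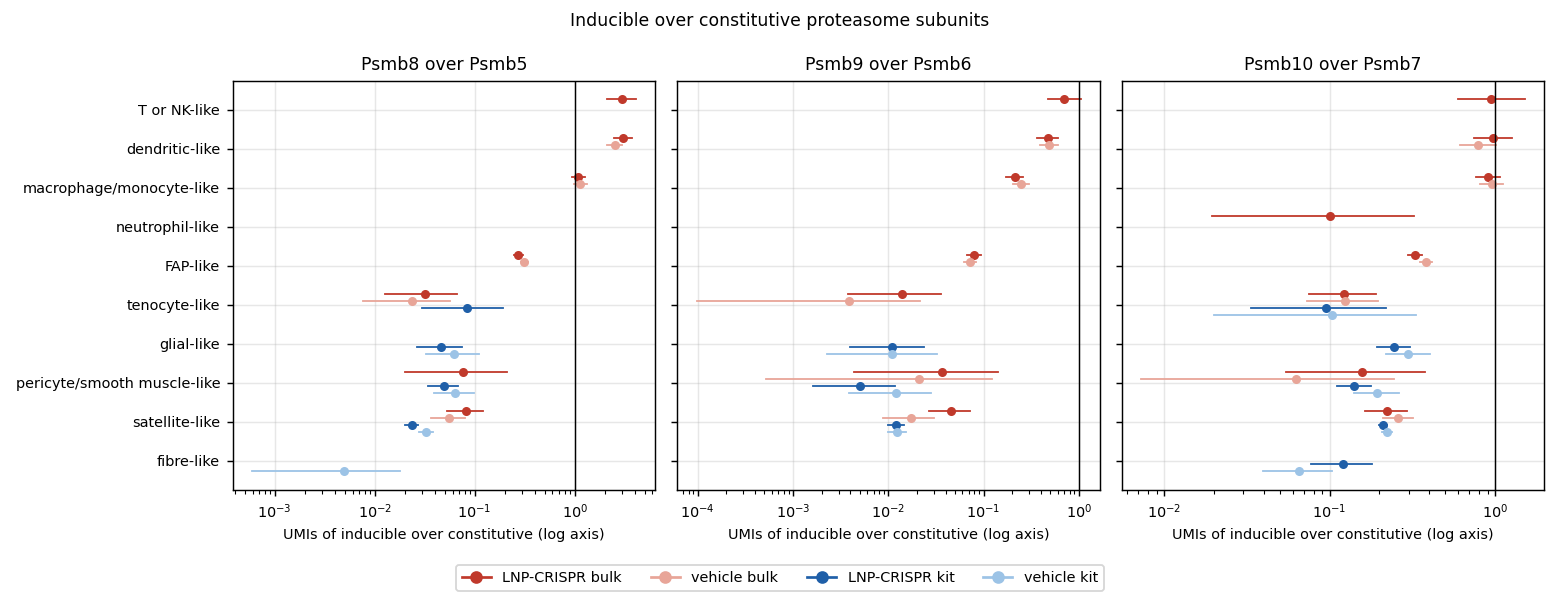
UMIs of each inducible proteasome subunit per UMI of the standard subunit it replaces (log axis), by cell class and library, with 95% counting intervals. Psmb8 per Psmb5 stands at 2.94 (2.13–4.12, LNP-CRISPR) and 4.81 (2.78–8.84, vehicle) in T or NK-like cells, at 3.04 (2.49–3.73, LNP-CRISPR) and 2.52 (2.12–2.9999, vehicle) in dendritic-like cells and at 0.0235 (0.0201–0.0274, LNP-CRISPR) and 0.0326 (0.0278–0.0380, vehicle) in kit satellite-like cells.

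Nlrc5 was rare in every class. It stood at 29.3 (LNP-CRISPR) and 26.03 (vehicle) CPM in T or NK-like cells (13 UMIs in LNP-CRISPR and 6 in vehicle), 10.3 (LNP-CRISPR) and 12.8 (vehicle) CPM in macrophage or monocyte-like cells, 2.21 (LNP-CRISPR) and 1.38 (vehicle) CPM in FAP-like cells and 0.387 (LNP-CRISPR) and 0.358 (vehicle) CPM in kit satellite-like cells (10 UMIs in LNP-CRISPR and 7 in vehicle). Fibre-like barcodes had 0 UMIs in LNP-CRISPR and 0 in vehicle.

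FAP-like cells formed 5 clusters, and the one led by the cytokine and interferon-response genes Cxcl5, Cxcl9, Il1rl1, Iigp1 and Ccl2 had the highest Tap1 in both treatments. It held 53.4 (LNP-CRISPR) and 66.9 (vehicle) CPM of Tap1 in 133 (LNP-CRISPR) and 126 (vehicle) cells, against 9.16 to 24.96 CPM in LNP-CRISPR and 17.5 to 28.4 CPM in vehicle over the other 4 clusters. Its Psmb8 was at 51.2 (LNP-CRISPR) and 53.3 (vehicle) CPM, its Nlrc5 at 4.79 (LNP-CRISPR) and 2.77 (vehicle) CPM (22 UMIs in LNP-CRISPR and 14 in vehicle) and its B2m at 865 (LNP-CRISPR) and 749 (vehicle) CPM. Within this cluster the ratio was 0.798 (0.674–0.943) for Tap1, 1.15 (1.10–1.21) for B2m and 1.12 (1.05–1.20) for H2-K1. In the cluster led by Pi16, a gene of adventitial progenitors, Tap1 was at 9.16 (LNP-CRISPR) and 23.6 (vehicle) CPM, a ratio of 0.388 (0.193–0.724).

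In the classes compared, most members differed little between LNP-CRISPR and vehicle. A gene was counted as higher or lower when it was at least 1.5-fold apart and had at least 20 UMIs over both libraries, in classes with at least 50 cells in both. Of 66 member ratios in 9 such comparisons 7 were higher in LNP-CRISPR, 2 were lower and 57 were neither. Over all genes the share higher ran from 3.20% to 22.7% by comparison, and the share lower from 4.78% to 25.6%. The pooled counts are therefore a description. The intervals of 21 left out 1, and of these 5 were past 1.5-fold. No share of all genes was computed for the intervals. In FAP-like cells 1 of 10 members was higher, against 3.61% of 13695 genes, and 0 were lower, against 6.18%. The median log2 ratio was 0.03 for the members and -0.05 for all genes. The commonest members lay slightly above 1, B2m at 1.14 (1.11–1.17), H2-K1 at 1.08 (1.04–1.12) and H2-D1 at 1.07 (1.03–1.10). Tap1 (0.952, 0.845–1.07), Tap2 (0.975, 0.855–1.11) and Tapbp (0.975, 0.918–1.04) had intervals that held 1. The clusters within the class were mixed in different shares: the one led by Cxcl5 and Cxcl9, which had the highest Tap1, gave 133 of 440 cells in LNP-CRISPR and 126 of 664 in vehicle, and the one led by Gdf10 and Myoc 59 in LNP-CRISPR and 164 in vehicle. Within the 5 clusters the Tap1 ratio ran from 0.388 (0.193–0.724) to 1.10 (0.670–1.75). Nlrc5 was the member counted as higher, at 1.60 (0.947–2.69) from 33 UMIs in LNP-CRISPR and 31 in vehicle, with an interval that held 1. Macrophage or monocyte markers came to 85.4 (LNP-CRISPR) and 33.7 (vehicle) CPM in these cells (12 of 12 genes seen in LNP-CRISPR and 12 in vehicle) and neutrophil markers to 97.1 (LNP-CRISPR) and 54.9 (vehicle) CPM (10 of 10 genes seen in LNP-CRISPR and 9 in vehicle). Their part in these ratios was not tested.

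Dendritic-like cells (70 in LNP-CRISPR and 59 in vehicle) had larger differences in the abundant members, with B2m at 1.43 (1.34–1.52), H2-K1 at 1.39 (1.27–1.53), H2-T23 at 1.22 (1.02–1.45) and H2-D1 at 1.15 (1.07–1.22). Psmb8 (0.887, 0.775–1.02) and Psmb9 (0.806, 0.614–1.06) had intervals that held 1. Nlrc5 passed 1.5-fold, at 3.54 (1.25–12.3) from 17 UMIs in LNP-CRISPR and 5 in vehicle, so that 1 of 10 members was higher, against 11.1% of 7287 genes, and 0 were lower, against 11.7%. The median log2 ratio was 0.23 for the members and -0.04 for all genes. Macrophage or monocyte markers came to 9612 (LNP-CRISPR) and 4676 (vehicle) CPM in the same cells (12 of 12 genes seen in LNP-CRISPR and 12 in vehicle) and T or NK markers to 395 (LNP-CRISPR) and 244 (vehicle) CPM (10 of 12 genes seen in LNP-CRISPR and 5 in vehicle). Their part in these ratios was not tested.

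In macrophage or monocyte-like cells 0 of 10 members passed 1.5-fold in either direction, against 5.48% of 9293 genes higher and 7.64% lower. B2m was at 1.10 (1.07–1.14), Tapbp at 1.16 (1.03–1.30) and Tap2 at 0.667 (0.481–0.919), just inside the limit. In bulk tenocyte-like cells 0 of the 7 members with enough UMIs passed, against 7.06% of 9691 genes higher and 9.63% lower, and all 7 intervals held 1, from 0.907 (0.813–1.01) for H2-D1 to 1.46 (0.867–2.49) for H2-T23. T or NK-like and neutrophil-like cells had 33 cells each in vehicle bulk, under the 50 needed, and are not in these counts. By cluster, T or NK-like cells had Psmb9 at 2.92 (1.36–7.17), Tapbp at 1.94 (1.21–3.22) and B2m at 1.16 (1.05–1.28). Bulk pericyte or smooth muscle-like cells (23 in LNP-CRISPR, 26 in vehicle) had H2-D1 at 2.35 (1.66–3.37) and B2m at 2.03 (1.44–2.91). Bulk cluster 8 (33 in LNP-CRISPR, 26 in vehicle) had B2m at 1.88 (1.48–2.41) and H2-K1 at 1.57 (1.14–2.19). All other members in these groups, and all in neutrophil-like cells, had intervals that held 1.

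In the kit, Tap1 stood higher in LNP-CRISPR in the 3 classes where it had enough UMIs. In satellite-like cells it was at 5.10 (LNP-CRISPR) and 3.38 (vehicle) CPM (132 UMIs in LNP-CRISPR and 66 in vehicle), a ratio of 1.51 (1.12–2.06). In glial-like cells it was at 13.5 (LNP-CRISPR) and 6.91 (vehicle) CPM, a ratio of 1.96 (0.967–4.38), and in pericyte or smooth muscle-like cells at 9.16 (LNP-CRISPR) and 5.64 (vehicle) CPM, a ratio of 1.62 (0.869–3.26). Of the 3 intervals that of the satellite-like cells left out 1. There Tap1 was the 1 of 9 members counted as higher, against 3.20% of 13416 genes, and 0 were lower, against 4.86%. Thinned to 1000 UMIs per cell, 6 Tap1 UMIs were left in each library and the log2 ratio was -0.18. A UMI of Tap1 was seen in 15.9% (LNP-CRISPR) and 10.8% (vehicle) of satellite-like cells. The satellite-like cluster marked by Pax7 and Myf5, genes of muscle stem cells, held 15.2 (LNP-CRISPR) and 8.79 (vehicle) CPM of Tap1, a ratio of 1.73 (1.07–2.86). The ratio also lay above 1, with intervals that held 1, in the clusters led by Cenpf (1.76, 0.851–3.73), Hist1h2ae (1.84, 0.944–3.79) and Esm1 (1.52, 0.589–4.63). Of the clusters marked by Myog and Mymk, genes of muscle differentiation and fusion, the one led by Myh3 had a ratio of 0.365 (0.0724–1.69). It held 1.003 (LNP-CRISPR) and 2.75 (vehicle) CPM from 4 UMIs in LNP-CRISPR and 5 in vehicle. Another such cluster, with 19 cells in LNP-CRISPR kit, was under the 20 cells needed.

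The other members did not share this difference in kit satellite-like cells. H2-K1 was at 1.11 (1.03–1.20), whereas H2-D1 (0.890, 0.843–0.940), B2m (0.933, 0.886–0.983), Tapbp (0.831, 0.719–0.960) and Psmb8 (0.756, 0.607–0.941) lay below 1. The median log2 ratio of the 9 members was -0.10, and that of all genes -0.02. In kit glial-like cells Tap2 (0.525, 0.291–0.950) and Psmb8 (0.610, 0.279–1.37) were the 2 of 7 counted as lower, against 5.30%, and Tap1 the 1 of 7 counted as higher, against 7.21% of 9889 genes. Of the 13 vehicle UMIs of Psmb8 there, 1 cell held 9. Without its highest cell in each library Psmb8 turned to 0.68 on the log2 scale. In kit pericyte or smooth muscle-like cells Tap1 was the 1 of 8 counted as higher, against 5.48% of 9929 genes, and 0 were lower, against 10.3%. H2-D1 was at 1.13 (1.005–1.26) and H2-K1 at 1.16 (0.981–1.38) there.

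In fibre-like barcodes (285 in LNP-CRISPR and 277 in vehicle) 2 of the 10 members had enough UMIs, and both were counted as higher. B2m, with 30 UMIs in LNP-CRISPR and 22 in vehicle, was at 1.92 (1.07–3.49) and H2-D1, with 22 UMIs in LNP-CRISPR and 12 in vehicle, at 2.58 (1.22–5.72). Thinned to 1000 UMIs per cell, 3 H2-D1 UMIs were left in each library and its log2 ratio was -0.029. In the same barcodes 22.7% of 4565 genes were higher and 4.78% lower, and the median log2 ratio of all genes was 0.20. Pericyte or smooth muscle markers came to 572 (LNP-CRISPR) and 277 (vehicle) CPM (9 of 10 genes seen in LNP-CRISPR and 7 in vehicle), neutrophil markers to 19.7 (LNP-CRISPR) and 3.90 (vehicle) CPM (3 of 10 genes seen in LNP-CRISPR and 1 in vehicle) and macrophage or monocyte markers to 3.29 (LNP-CRISPR) and 0.780 (vehicle) CPM (2 of 12 genes seen in LNP-CRISPR and 1 in vehicle). All 12 T or NK markers were at 0 in both libraries. The part of RNA from other cells was not tested. Cluster 8 had 3 members with enough UMIs in the kit, and 0 passed 1.5-fold, against 6.42% of 3911 genes higher and 25.6% lower.

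**Figure D3:**
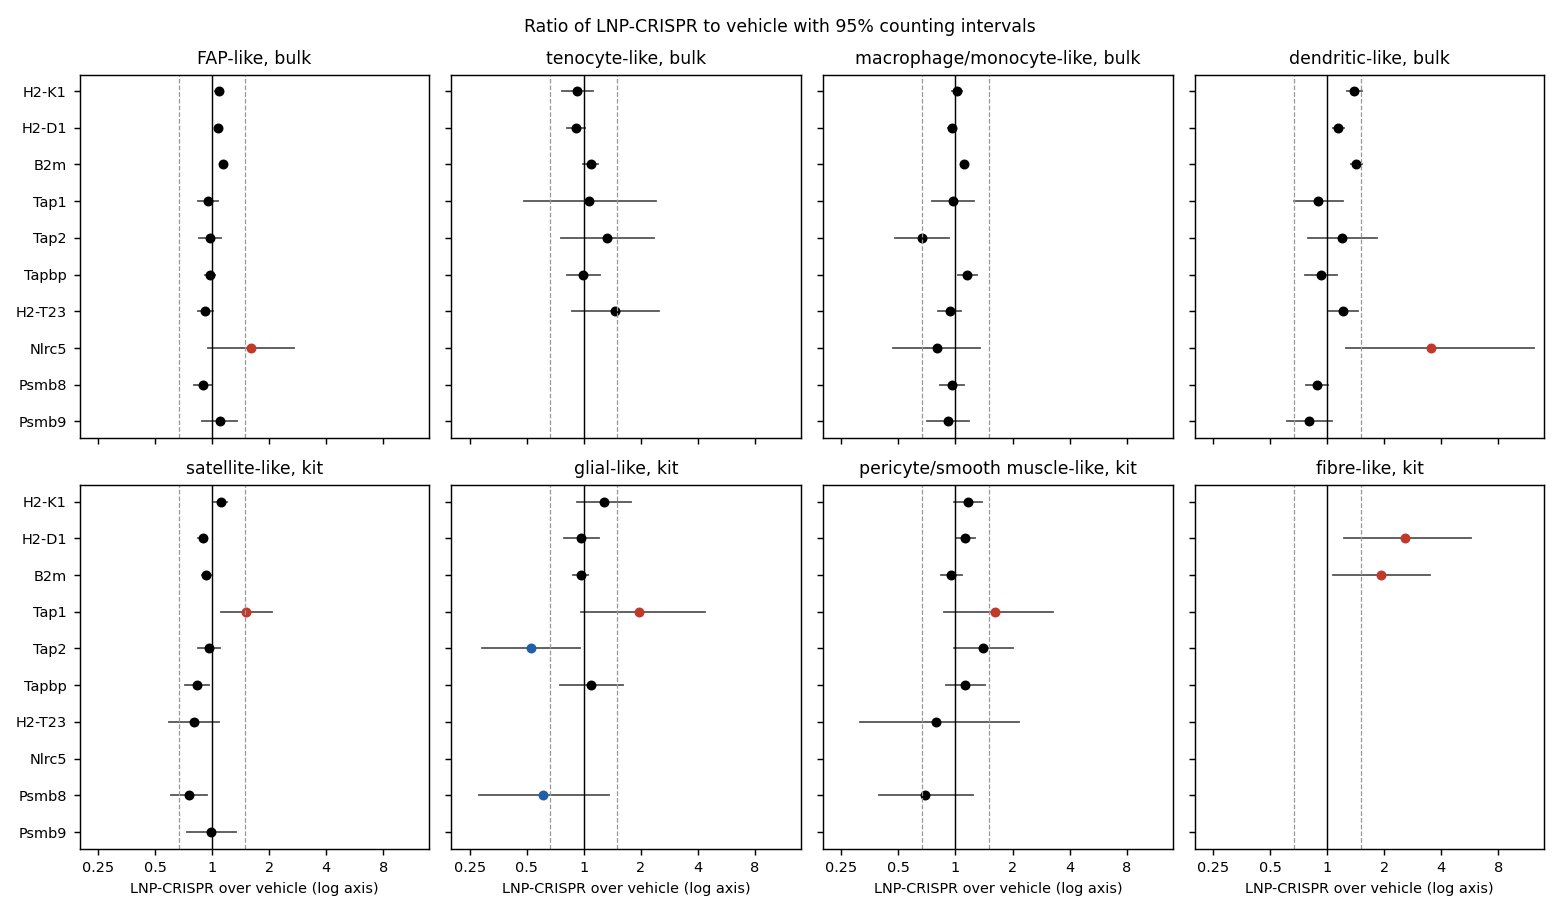
LNP-CRISPR over vehicle (log axis) for each gene in the classes compared, with 95% counting intervals. Dashed lines mark 1.5-fold in either direction, red points lie above that limit, blue points below it, and genes with under 20 UMIs are left out. Tap1 is red in kit satellite-like cells, at 1.51 (1.12–2.06), and black in FAP-like cells, at 0.952 (0.845–1.07).

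Genes around the pathway were read in 6 lists that leave out the members. Of the regulators, in bulk tenocyte-like cells 12 of 14 measured lay above 1 and 5 passed 1.5-fold upward, against 45.8% of all genes above 1 and 7.06% past 1.5-fold. The median log2 ratio was 0.38, against -0.04 for all genes. Among them were Nfkb1 (2.04, 1.74–2.39), Irf1 (1.93, 1.54–2.44) and Irf2 (1.75, 1.34–2.31). In kit satellite-like cells Irf1, an interferon regulatory factor that acts on class I pathway genes, was at 1.68 (1.53–1.84), with 58.2 CPM in LNP-CRISPR and 34.6 CPM in vehicle, the 1 of 15 regulators past 1.5-fold, against 3.20% of all genes higher. FAP-like cells had Stat2 at 1.68 (1.5001–1.89) and Irf8 at 1.81 (1.35–2.44), 2 of 15 against 3.61%, and Irf1 at 1.31 (1.24–1.39). Irf1 was at 2.19 (1.26–3.94) in dendritic-like cells. Of the 14 regulators measured there 7 lay above 1, against 46.0% of all genes. Past 1.5-fold were 1 upward, against 11.1% of all genes, and 2 downward, against 11.7%. In macrophage or monocyte-like cells Irf1 was at 0.507 (0.369–0.689), and 1 vehicle cell held 26 of 134 UMIs. There 1 of 15 regulators was higher, against 5.48%, and 1 lower, against 7.64%. Kit pericyte or smooth muscle-like cells had Nfkb1 at 1.70 (1.52–1.90) and Rela at 1.51 (1.26–1.82). There 2 of 14 regulators were higher, against 5.48%, and 0 lower, against 10.3%.

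Among other class I genes 2 of 9 measured in FAP-like cells were higher, against 3.61%, H2-Q10 (1.64, 1.33–2.03) and H2-Q7 (1.55, 1.27–1.91). H2-Q7, a Qa-2 heavy chain, was also higher in dendritic-like cells (1.88, 1.37–2.58) and kit satellite-like cells (1.59, 1.08–2.37), and lower in macrophage or monocyte-like cells (0.621, 0.415–0.919). H2-Q genes are near copies of each other, so their counts are uncertain. Fcgrt, the neonatal Fc receptor, was at 0.587 (0.469–0.731) in macrophage or monocyte-like cells. Of the 5 peptide loading genes (4 measured in tenocyte-like cells) and the 10 further proteasome genes 0 passed in the 4 bulk classes compared. The same held in kit satellite-like and pericyte or smooth muscle-like cells. Over all genes 3.20% to 11.1% were higher in these classes and 4.86% to 11.7% lower. The chaperone Calr, for example, was at 0.978 (0.958–0.998) in FAP-like cells. In kit glial-like cells 1 of 10 proteasome genes was higher, against 7.21%. In fibre-like barcodes 1 of 3 peptide loading and 1 of 10 proteasome genes were higher, against 22.7%. In cluster 8 of the kit 2 of 3 and 1 of 10 were lower, against 25.6%. Of the interferon ligands and receptors 6 of 7 lay above 1 in FAP-like cells, against 39.0% of all genes, and 0 of 7 in macrophage or monocyte-like cells, against 46.4%. In neither class was any past 1.5-fold.

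Checkpoint genes and receptors of class I were measured mainly in immune cells. Cd274 (PD-L1), which restrains T cells, was at 1.84 (1.51–2.26) in macrophage or monocyte-like and 1.71 (1.32–2.22) in dendritic-like cells. Klrd1, a subunit of the receptor for Qa-1, was at 0.566 (0.452–0.707) in dendritic-like cells, and Pirb, an inhibitory receptor of class I, at 1.56 (1.24–1.96). In FAP-like cells Lilrb4a was at 4.44 (2.79–7.29), from 74 UMIs in LNP-CRISPR and 25 in vehicle. It is an inhibitory receptor of myeloid cells, and macrophage or monocyte markers in the same cells came to 85.4 (LNP-CRISPR) and 33.7 (vehicle) CPM. Their part in the Lilrb4a ratio was not tested. Lilrb4a, and Irf1 in dendritic-like cells, were singled out after their values had been seen.

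Cells that carried Cas9 RNA (at least 4 UMIs) were set against cells of the same class and library with 0 Cas9 UMIs. In FAP-like cells of LNP-CRISPR bulk there were 295 carrying and 44 free cells, with median depths of 29593 UMIs in carrying and 22439 UMIs in free cells. Tap1 was at 34.2 CPM in carrying and 10.4 CPM in free cells, a ratio of 3.28 (1.81–6.63) from 344 and 11 UMIs. It was the 1 of 10 members past 1.5-fold upward, against 11.1% of genes, and 0 were lower, against 13.8%. The other 9 ran from 0.774 (0.432–1.51) for Psmb9 to 1.31 (0.327–11.4) for Nlrc5. H2-K1 was at 0.864 (0.776–0.964) and B2m at 0.970 (0.901–1.05).

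Along the Cas9 count per cell, Tap1 in FAP-like cells stood at 31.8 CPM in vehicle cells and then, in LNP-CRISPR cells with 0, 1 to 3, 4 to 19, 20 to 99 and 100 or more Cas9 UMIs, at 10.4, 25.6, 28.6, 42.8 and 33.8 CPM. The Cas9-free cells thus lay below the vehicle cells, and the cells with 4 to 19 and with 100 or more lay near them. H2-K1 in the same order was at 273, 355, 248, 305, 326 and 287 CPM and B2m at 600.3, 744, 576, 716, 721 and 732 CPM. Unlike Tap1, both were highest in Cas9-free cells, with intervals that overlapped those of the next highest bin. Cxcl10, an interferon-induced chemokine, was at 115, 36.0, 280.0, 515, 1118 and 1126 CPM and Irf1 at 113, 101, 116, 156, 159 and 192 CPM. The bins differed in makeup: the cluster led by Cxcl5 and Cxcl9, which had the highest Tap1, gave 18.98, 20.5, 18.8, 24.4, 42.6 and 48.5 percent of their cells. Within that cluster Tap1 was at 61.7 CPM in 105 carrying and 5.46 CPM in 9 free cells (203 and 2 UMIs), in the largest FAP-like cluster at 25.4 CPM in 81 carrying and 6.68 CPM in 28 free cells (69 and 3 UMIs), and in the cluster led by Gdf10 and Myoc at 17.5 CPM in 47 carrying and 24.1 CPM in 5 free cells (19 and 3 UMIs). The Cas9-free level rests on 11 UMIs in all. In the largest cluster 2 of 9 members with enough UMIs passed 1.5-fold downward, against 18.7%, Tap2 at 0.675 (0.354–1.40) and Psmb9 at 0.441 (0.164–1.38), with intervals that held 1. Tap1 was the 1 past it upward there, against 11.3%.

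**Figure D4:**
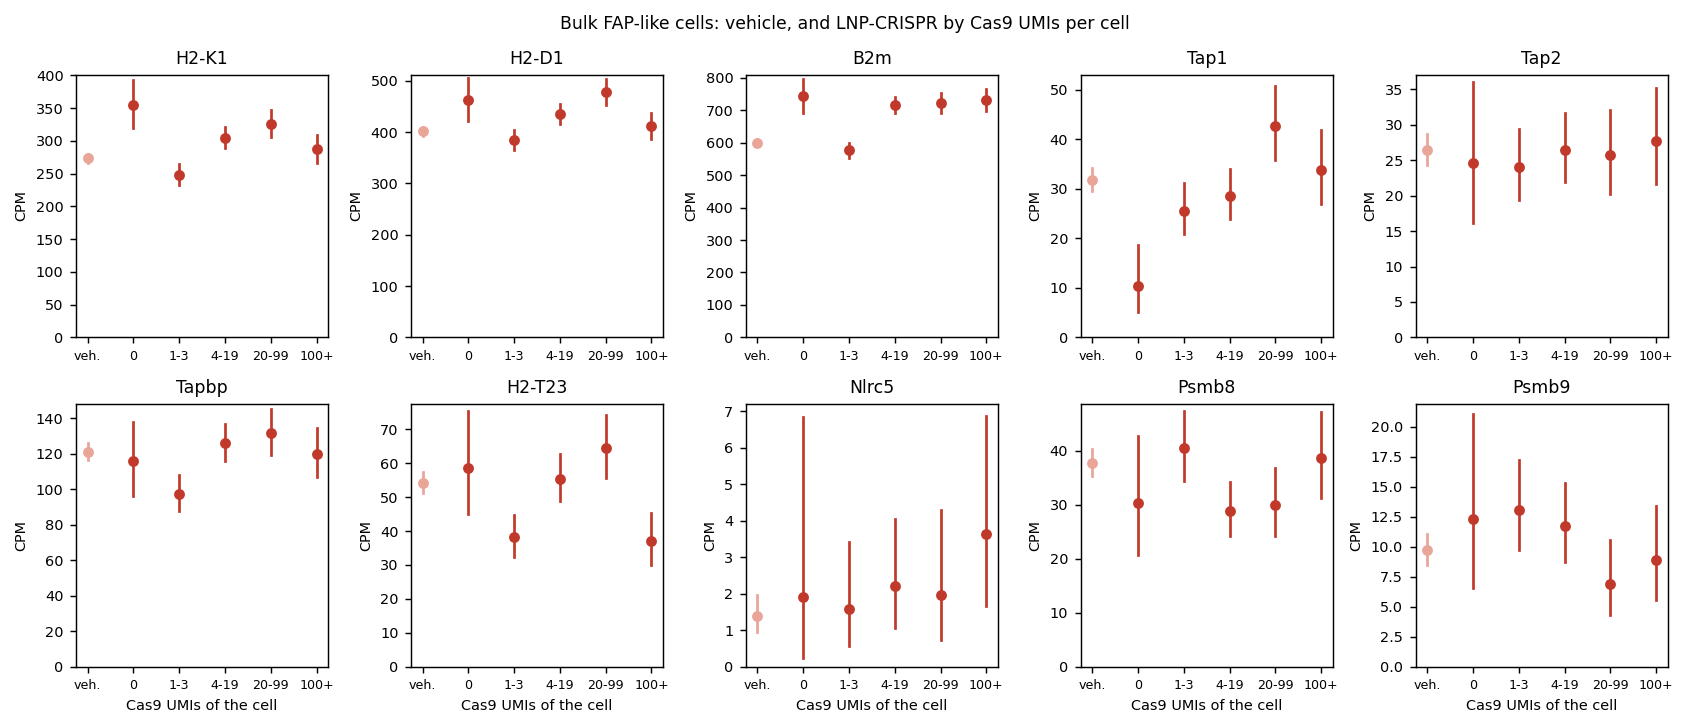
Level (CPM) in bulk FAP-like cells, with vehicle cells at the left of each panel and then LNP-CRISPR cells by Cas9 UMIs per cell, from 0 to 100 or more. Lines are 95% Poisson counting intervals. Tap1 is lowest, at 10.4 CPM, in LNP-CRISPR cells with 0 Cas9 UMIs and highest, at 42.8 CPM, with 20 to 99.

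In macrophage or monocyte-like cells (68 carrying, 48 free) H2-K1 was at 1.39 (1.25–1.56), B2m at 1.16 (1.09–1.23) and Tap1 at 1.34 (0.849–2.18). There 0 of 10 members passed 1.5-fold, against 19.0% of genes higher and 14.4% lower. The cluster led by C1qa and C1qb gave 55 of the carrying and 21 of the free cells, and the cluster led by Chil3 and Ly6c2 gave 13 carrying and 27 free cells. Within the first of these 8 of 9 members with enough UMIs lay above 1. The share of all genes above 1 was not computed there. The median log2 ratio was 0.40 for the members and -0.008 for all genes. Past 1.5-fold upward were 3 members, against 20.1% of genes, and 0 were lower, against 17.1%. The 3 were Tap2 at 2.06 (0.707–8.15), H2-T23 at 1.97 (1.27–3.18) and Psmb9 at 1.61 (0.803–3.58). H2-K1 was at 1.42 (1.23–1.64) and B2m at 1.22 (1.12–1.32) there.

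In kit satellite-like cells (94 carrying, 370 free) Tap1 was at 1.10 (0.681–1.72). H2-T23 was the 1 of 9 members counted as lower, at 0.440 (0.193–0.890) from 9 and 64 UMIs, against 10.4%, and 0 were higher, against 3.69%. Carrying and free cells differed in depth, with medians of 45451.5 UMIs in carrying and 22933 UMIs in free cells, and in makeup. The Pax7 and Myf5 cluster, with the highest H2-T23 of the satellite-like clusters (11.7 (LNP-CRISPR) and 12.4 (vehicle) CPM), gave 19 of the carrying and 163 of the free cells, with 1 UMI of H2-T23 in carrying and 30 in free cells. The part of depth and makeup in this ratio was not tested. In kit pericyte or smooth muscle-like cells (31 carrying, 165 free) Tap2 was the 1 of 6 counted as lower, at 0.537 (0.248–1.04), against 11.6%, and 0 were higher, against 10.7%. Cas9 RNA inside a cell and Cas9 RNA adhering to it cannot be told apart in these counts.

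Satellite-like cells were also present in bulk, 37 in LNP-CRISPR and 43 in vehicle. Kit over bulk, Psmb9 was at 0.334 (0.201–0.585) in LNP-CRISPR and 0.749 (0.406–1.51) in vehicle, and Psmb8 at 0.369 (0.243–0.581) in LNP-CRISPR and 0.647 (0.434–0.995) in vehicle. H2-D1 was at 0.7999 (0.694–0.926) in LNP-CRISPR and 1.04 (0.918–1.19) in vehicle, and B2m at 0.721 (0.634–0.822) in LNP-CRISPR and 0.815 (0.730–0.913) in vehicle. Macrophage or monocyte markers in satellite-like cells came to 2.86 (LNP-CRISPR) and 2.35 (vehicle) CPM in the kit libraries (5 of 12 genes seen in LNP-CRISPR and 5 in vehicle) and to 24.5 (LNP-CRISPR) and 20.8 (vehicle) CPM in the bulk libraries (8 of 12 genes seen in LNP-CRISPR and 10 in vehicle). FAP markers came to 337 (LNP-CRISPR) and 410.3 (vehicle) CPM in the kit and 569 (LNP-CRISPR) and 801 (vehicle) CPM in bulk. The part of such RNA in the bulk levels was not tested.

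Across the 31 points the 45 pairs of members had Pearson r from 0.55 (Tapbp and Nlrc5) to 0.97 (H2-K1 and H2-D1), and 24 pairs were above 0.8. The share of all gene pairs above 0.8 was not computed. Among genes with a mean of at least 20 CPM, those most like H2-K1 were H2-D1 (0.97), Furin (0.96) and Shisa5 (0.94). Those most like B2m were Gna13 (0.93), H2-D1 (0.92) and H2-K1 (0.92), and those most like Tap1 were Gna13 (0.86), B2m (0.85) and H2-K1 (0.85). For Psmb8 they were Ankrd13a (0.89), Il2rg (0.88) and Psme1 (0.87). Only H2-K1 and H2-D1 had another member as their closest gene. The points share 4 libraries and their depth, so these values are descriptions.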

How the data were processed

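Single-cell RNA libraries were prepared with 10x Chromium 3′ v3.1 kits, per the labels' protocols. The deposited matrices, 1 for each of 4 libraries, give unnormalized UMI counts for 6512 barcodes. They were made with cellranger 5.0.1 per the file headers, but with Cell Ranger 7.0.1 on mm10 per the submitters' processing notes. A barcode was kept if it had 200 genes or more and mitochondrial UMIs were not above 20%. Scrublet (scanpy 1.11.5, expected rate 0.05) called 0.260% to 0.496% of cells as doublets, too few for the caller to have worked, and most doublets probably remain. The 5651 remaining cells were scaled to 10000 UMIs and reduced to 2000 variable genes and 30 principal components. They were joined by 15 neighbours and clustered with Leiden at resolution 1.0 (seed 1), with 49 class I pathway genes left out. A class needed 3 enriched markers.

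Levels are summed UMIs per 1000000 nuclear-encoded UMIs with exact Poisson intervals, ratios have exact conditional binomial intervals at 95%, and log2 ratios use a pseudocount of 0.5 UMI. Levels need 20 cells, comparisons of classes between treatments 50 cells in both libraries, and ratios within a single cluster 20 cells in both. A count of 0 is set against 3 counts. No test was run. The members were measured in every class and library with enough cells, and the text gives a selection of their values. Genes of the wider lists were named if they were among the 3 most abundant or, with at least 100 UMIs, past 1.5-fold. The members, lists and markers were chosen with earlier results of these data known. The limit of 4 Cas9 UMIs, the Cas9 bins and the balances between members were chosen after values had been seen. Gene positions come from GENCODE M21 (32158 of 32285 mouse features matched). The ratio step was tested on simulated data. Alternatives were other denominators, centring, cell weights, thinning to 1000 UMIs, doublets kept, stricter filters, resolution 2.0, clusters formed with the members, and classes by marker score.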

Additional observations from a re-analysis of the deposited data

Results flagged for a closer look

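In 3 cases a member lay above 1 in LNP-CRISPR in one class and below 1 in another, with both intervals leaving out 1; the differences themselves were not tested. H2-D1 was 2.58 (1.22–5.72) times as high in LNP-CRISPR as in vehicle in kit fibre-like barcodes and 0.890 (0.843–0.940) times in kit satellite-like cells, 1.51 apart on the log2 scale. B2m was 1.92 (1.07–3.49) times as high in kit fibre-like barcodes and 0.933 (0.886–0.983) times in kit satellite-like cells, 1.03 apart. Tapbp was 1.16 (1.03–1.30) times as high in bulk macrophage or monocyte-like cells and 0.831 (0.719–0.960) times in kit satellite-like cells, 0.48 apart. Thinned to 1000 UMIs per cell, H2-D1 in fibre-like barcodes turned to -0.029 on the log2 scale, from 3 UMIs in each library. The fibre-like values rest on 22 and 12 UMIs of H2-D1 and 30 and 22 UMIs of B2m (LNP-CRISPR and vehicle).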

How the results depend on the processing

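The median log2 ratio of the members was rerun with alternative settings in all comparisons. In 121 alternative values it stayed between the median lower and the median upper limit of the members' own intervals. That span is typical of a single member and is not an error of the median, which was not computed. The 1 value outside it was bulk FAP-like cells thinned to 1000 UMIs, at 0.23 against 0.03. Among alternative values for single members 600 stayed within their intervals, 54 moved and 6 reversed. The summed level of the 10 members was less stable: 43 alternative values moved and 46 stayed, with 18 of 31 moved under equal weight per cell, 19 of 31 under thinning to 1000 UMIs and 6 of 27 with clusters formed with the members. Relative to the level as given, the values ran from 0.707 to 2.09, and 6 were more than 1.5-fold away. Thinning to 1000 UMIs reversed 4 of the 6: Tap1 in kit satellite-like cells (-0.18, from 6 UMIs in each library), Tap2 in kit glial-like cells (0.30, from 3 UMIs in LNP-CRISPR and 1 in vehicle), H2-D1 in fibre-like barcodes (-0.029, from 3 and 3) and Nlrc5 in dendritic-like cells (-0.21, from 0 and 0, so that the pseudocount alone sets it). Psmb8 in kit glial-like cells reversed with each cell given equal weight (0.40) and without its highest cell (0.68). In vehicle 1 cell held 9 of its 13 UMIs, and the cause was not tested beyond these settings. Tap1 of Cas9-carrying over Cas9-free FAP-like cells was 1.65 on the log2 scale, and 1.55 to 2.28 with 1 Cas9 UMI as the limit, without the highest cells or thinned to 10000 UMIs, alternatives chosen after seeing the data. No paired analysis was possible because each group has 1 library, so that the groups share 1 replicate number. A fit of treatment and isolation over the 4 libraries was not run: the 37 (LNP-CRISPR) and 43 (vehicle) satellite-like cells of bulk are under the 50 cells set for a comparison. With 1 library per group no replicate was left out. Depth limits Nlrc5 and all rare members in fibre-like barcodes.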
